A study of Mus musculus with 6 samples.

Results

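The IL-1 family cytokines, antagonists and receptors were examined as 8 genes, Il1a, Il1b, Il18, Il1rn, Il18bp, Il1r1, Il1r2 and Il1rap. They were found by their exact symbols, and all 8 were among the 15415 genes of the expression table. RNA had been sequenced from peritoneal macrophages (PEMs) in 6 libraries. The knockout group comprised 3 libraries of the genotype LysM-Cre; Tim-4 fl/fl, and the control group comprised 3 of Tim-4 fl/fl without Cre. The floxed Tim-4 allele was therefore present in both groups, and loss of Tim-4 cannot be told apart from carriage of the Cre allele. Every library is labelled as treated with lipopolysaccharide (LPS), so levels without LPS were not measured. The mice of the study were young adult males, the floxed allele was made in C57BL/6J mice, and PEMs were elicited with starch. LysM-Cre is expressed from Lyz2, the lysozyme gene of myeloid cells, so it acts in neutrophils as well as macrophages. The labels do not say whether each library came from a separate mouse, and p-values then measure only the spread between these libraries, which may be technical.

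IL-1α and IL-1β, the products of Il1a and Il1b, are made by macrophages that have sensed LPS, and both signal through IL-1R1 (Il1r1) together with its accessory protein (Il1rap). The IL-1 receptor antagonist (Il1rn) occupies IL-1R1 without signalling, and IL-1R2 (Il1r2) is a decoy receptor that binds IL-1 but lacks the signalling domain. IL-18 acts on a receptor of its own and is neutralised by the IL-18 binding protein (Il18bp). IL-1β and IL-18 are made as precursors that caspase-1 cleaves in inflammasomes, a step that mRNA levels do not show.

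The libraries held 36170767 to 42217558 counted reads. The authors' values are FPKM, that is, reads scaled to gene length and to the sum of reads in the library, which allows levels of different genes to be compared. The groups follow the sample titles, because the genotype entry in the labels names them in the opposite way. Timd4, the gene of Tim-4, measured 0.334, 0.394 and 0.246 FPKM across knockout libraries 1 to 3, against 19.5, 12.1 and 1.19 FPKM across control libraries 1 to 3, which goes with the titles and against the genotype entry (log2 fold change -2.66, limma adjusted p = 0.0715, or 0.0436 with the replicate number as a block). Control library 3 thus had far less Timd4 than the other controls. Lyz2, the gene that carries Cre, measured 41.4, 4656 and 106 FPKM across knockout libraries 1 to 3, against 7090 to 8482 FPKM in the controls, so that knockout library 2 stood apart from the other knockouts. The most abundant macrophage genes were high in all 6 libraries, with Cd68 at 816 to 1685 FPKM, Adgre1 at 235 to 364 FPKM and Itgam at 245 to 400 FPKM, while Mertk lay between 0.821 and 12.1 FPKM. Of the 6 macrophage genes, 1 (Mrc1) rose in the knockout and none fell, where 2.57% of all tested genes rose and 4.74% fell. Markers of mast cells and neutrophils are given beside the members they touch. Among the other marker lists, the genes that fell were 3 of 5 tested genes of large peritoneal macrophages (summed level 10.1 to 20.7 FPKM against 88.7 to 244 FPKM), 7 of 8 B cell genes (11.2 to 12.5 against 36.8 to 137 FPKM) and 1 of 2 T and NK cell genes (Cd2, but not Lck). Of these, 3 of the 5, 6 of the 8 and both T and NK cell genes reached the filter through the controls alone, so their counts are descriptions. The most abundant were Cd5l, Prg4 and Timd4 for large peritoneal macrophages, Cd79a, Cd79b and Cd22 for B cells, and Cd2, Lck and Cd3g for T and NK cells. Timd4 is the gene targeted in the knockout. It counts among the 5 tested large peritoneal macrophage genes and in their summed level, but not among the 3 that fell. Dendritic cell genes, led by Flt3, Zbtb46 and Cd209a, summed to at most 0.897 FPKM and none was tested. In bulk RNA, fewer cells of a type and less RNA per cell cannot be told apart.

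In every library Il1a and Il1b were far more abundant than the receptor genes of the family. The order of the FPKM levels was Il1a, Il1b, Il1rn, Il18, Il18bp, Il1rap, Il1r1 and Il1r2 from highest to lowest in 5 of the 6 libraries, and knockout library 2 differed only in that Il1r1 stood above Il1rap. Il1a ranked between 16 and 57 among the 15415 genes, Il1b between 21 and 151, and Il1rn between 85 and 261. Over all libraries together, the ranges of neighbours in this order overlapped for every pair but Il1rn and Il18.

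Of the 8 members, 7 reached the filter of a mean of at least 1 FPKM in 1 group and were tested, and Il1r2 did not. None of the 7 passed an adjusted p of 0.05 by limma, where 7.31% of the 9030 tested genes did. At an unadjusted limma p under 0.05 there were 2, Il1rn and Il1r1, beside 2494 of the 9030 tested genes. Voom, a fit of the recovered read counts in limma, likewise gave 0 past the threshold and 2 at the unadjusted level, beside 2506 of all tested genes. The knockout and control libraries did not overlap for these same 2 genes of 7, against 34.1% of all tested genes. Il1r1 was tested through the knockout group alone, so its direction was set by the filter. The median log2 fold change of the 7 was 0.05, beside -0.11 over all tested genes.

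**Figure D1:**
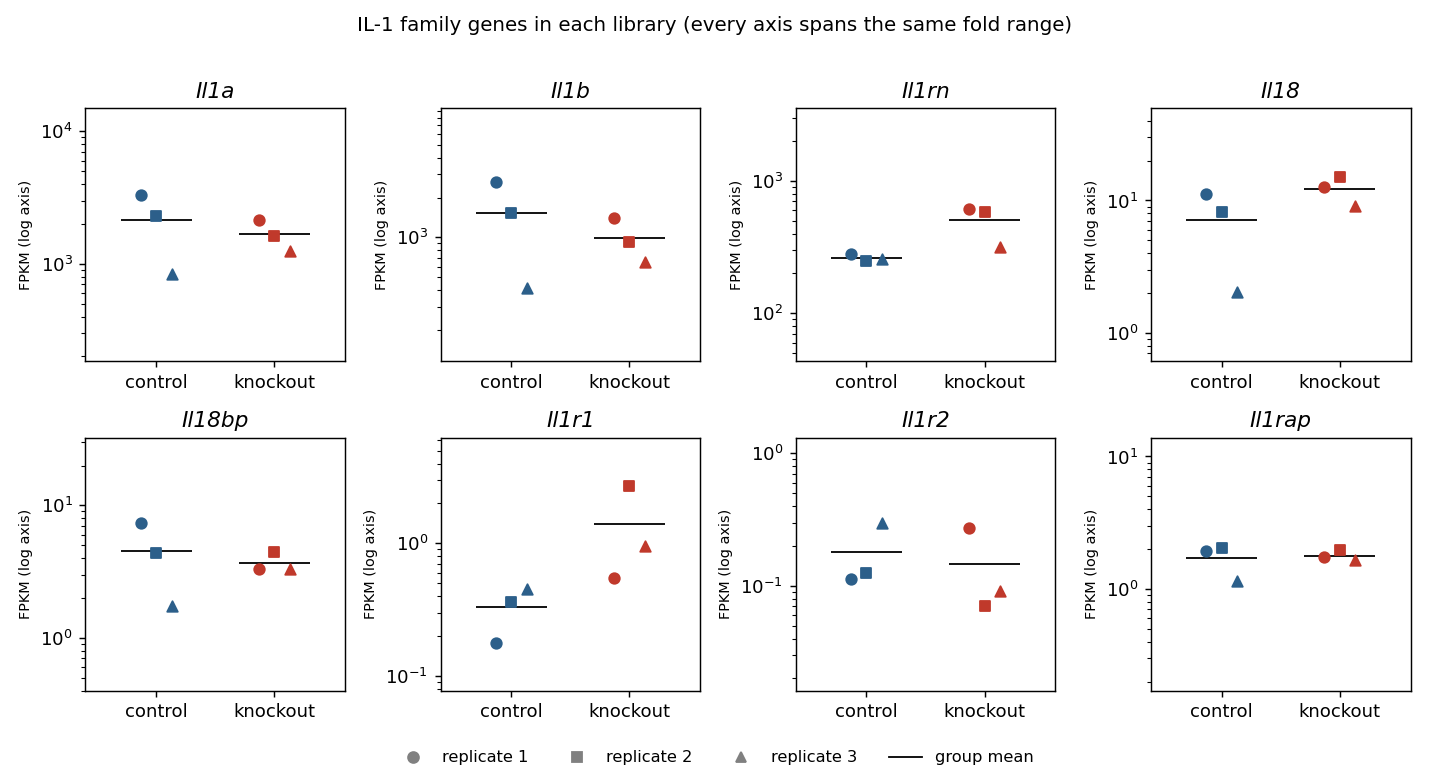
FPKM of the 8 IL-1 family genes in each library, control in blue and knockout in red, on log axes that all span the same fold range, with replicates as symbols and group means as lines. Il1rn and Il1r1 are the genes in which all 3 knockout libraries lie above all 3 controls, while control library 3 is the lowest of the 6 for Il1a, Il1b, Il18, Il18bp and Il1rap.

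The agonist genes Il1a and Il1b lie next to each other on chromosome 2, and their proximal promoters are shown because their levels followed each other across libraries. The sequences are the 150 bases before the start site on the strand of the genes (minus), from RefSeq on GRCm38.p6, at chr2:129309973-129310122 for Il1a and chr2:129371140-129371289 for Il1b. Capitals mark matches to the letters TTGNNNAA of C/EBP, a family of factors that act in macrophages and other myeloid cells. They also mark the letters GAGGAA, the core that the macrophage factor PU.1 binds. The letters TATAAA mark a TATA box. The last set of capitals in Il1a, TGANTCA, belongs to AP-1.

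Il1a: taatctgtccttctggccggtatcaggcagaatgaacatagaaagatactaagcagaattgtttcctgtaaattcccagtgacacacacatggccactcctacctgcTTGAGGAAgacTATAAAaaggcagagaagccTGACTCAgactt
Il1b: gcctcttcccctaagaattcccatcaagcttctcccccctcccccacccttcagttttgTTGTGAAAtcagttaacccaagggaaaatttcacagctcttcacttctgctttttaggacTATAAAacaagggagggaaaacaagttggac

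Both promoters held TATA letters at nearly the same place, 32 to 27 bases before the start in Il1a and 31 to 26 bases before it in Il1b. Among the 32851 promoters searched over 250 bases and on both strands, 12.4% held these letters anywhere. C/EBP letters stood 43 to 36 bases before the Il1a start, where they overlap the PU.1 letters, and 91 to 84 bases before the Il1b start. C/EBP letters were found in 33.3% of all promoters, PU.1 letters in 23.3% and AP-1 letters, seen in Il1a 12 to 6 bases before the start, in 6.75%. Neither window held a match for NF-kB (in 7.25% of promoters), ISRE (GAAANNGAA, 7.13%), GAS (TTCNNNGAA, 7.02%) or CRE (TGACGTCA, 1.55%). These are descriptions of letters in a short window only. NF-kB was searched with a pattern of 10 bases that is not spelled out here, so sites that depart from it or lie farther away would be missed. Genes that overlap Il1a and Il1b in the annotation held few reads, at most 949 for Gm14023 beside at least 59689 for Il1a, and at most 30 for Il1bos beside at least 28559 for Il1b.

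Il1a, the IL-1α gene, was the highest member, with 2139, 1617 and 1246 FPKM across knockout libraries 1 to 3, against 3295, 2306 and 836 FPKM across control libraries 1 to 3. The controls enclosed the knockouts, with control libraries 1 and 2 above and control library 3 below all 3 knockouts. The means were 1668 ± 449 FPKM in the knockout and 2146 ± 1237 FPKM in the control (SD, n = 3), and the log2 fold change was -0.19 (95% interval -1.32 to 0.95, limma adjusted p = 0.830).

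Il1b, the IL-1β gene, measured 1410, 916 and 653 FPKM across knockout libraries 1 to 3, against 2625, 1536 and 418 FPKM across control libraries 1 to 3. Again the controls lay on either side of the knockouts. The means were 993 ± 384 and 1526 ± 1103 FPKM (SD, n = 3), and the log2 fold change was -0.33 (95% interval -1.83 to 1.17, limma adjusted p = 0.765). The intervals of both genes include a fall to less than the control level and a rise above it, so neither direction was detectable. Both values depended on which control was included. Without control library 3 the log2 fold change was -0.76 for Il1a (limma adjusted p = 0.101) and -1.09 for Il1b (adjusted p = 0.0876), and without control library 1 it was 0.23 for Il1a and 0.24 for Il1b.

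The spread of Il1b among the controls was unusual. Its highest control was 6.28 times its lowest, a ratio that 1.46% of the tested genes reached, while the median gene had a ratio of 1.44. The corresponding ratio of Il1a was 3.94 in the control and 1.72 in the knockout, and that of Il1b in the knockout was 2.16. The libraries stood in the same order for both genes, control 1, control 2, knockout 1, knockout 2, knockout 3 and control 3. Of the 9029 tested genes other than Il1b, 20 (0.222%) had its order, Il1a included. Among them were also Il6, the gene of a cytokine that drives the acute-phase response, and Naip5. Il6 measured 537, 399 and 358 FPKM across knockout libraries 1 to 3, against 1932, 1122 and 220 FPKM across control libraries 1 to 3. Over the 6 libraries, the genes closest to Il1b by Pearson's r of log2(FPKM + 1) were Il1a (r = 0.998), Upp1 (0.986), a uridine phosphorylase, and Lacc1 (0.981), a macrophage enzyme, among 5459 genes with a mean of at least 5 FPKM. The next closest to Il1a after Il1b were also Upp1 (0.987) and Lacc1 (0.983). The points share 2 groups and their libraries, so these r values are descriptions.

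**Figure D2:**
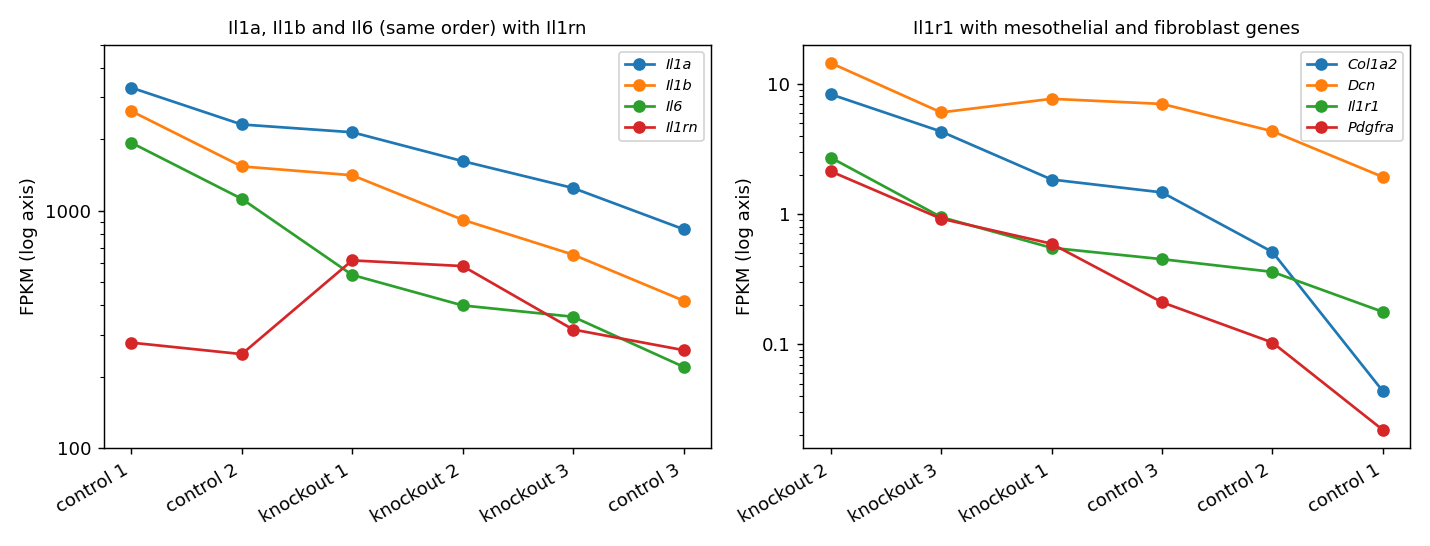
FPKM on log axes across the 6 libraries, which are sorted on the left by Il1b and on the right by Il1r1. Il1a, Il1b and Il6 decline together from control library 1 to control library 3 while Il1rn peaks in knockout libraries 1 and 2, and Il1r1, Col1a2 and Pdgfra share 1 order from knockout library 2 to control library 1 whereas Dcn does not follow it fully.

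Il18, the IL-18 gene, was expressed at a much lower level, with 12.5, 15.0 and 9.06 FPKM across knockout libraries 1 to 3, against 11.2, 8.13 and 2.03 FPKM across control libraries 1 to 3. Knockout libraries 1 and 2 were the highest, but control library 1 lay above knockout library 3, so the groups overlapped. Between libraries of the same number, which are not known to be pairs, the knockout was the higher in all 3 comparisons (limma adjusted p = 0.110 with the block). The means were 12.2 ± 2.98 and 7.11 ± 4.66 FPKM (SD, n = 3), and the log2 fold change was 0.90 (95% interval -0.25 to 2.05, limma adjusted p = 0.275). This difference rested largely on control library 3, and without that library the log2 fold change was 0.30 (adjusted p = 0.408). The genes nearest to Il18 in pattern were Samhd1 (r = 0.998), Tlr3 (0.997) and Tnfsf10 (0.997). Il18 overlaps Bco2, which held 5 to 110 reads in a library beside 190 to 1642 for Il18, and the strand of counting is not given. Tlr3 encodes a receptor for double-stranded RNA and Tnfsf10 the death ligand TRAIL.

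Il1rn, which encodes the IL-1 receptor antagonist, was the member with the smallest p. It measured 618, 585 and 316 FPKM across knockout libraries 1 to 3, against 278, 249 and 259 FPKM across control libraries 1 to 3. All 3 knockout libraries were above all 3 controls, and knockout library 3 was close to them. The means were 506 ± 165 and 262 ± 14.9 FPKM (SD, n = 3), a ratio of 1.93. The log2 fold change was 0.89 (SE 0.256, 95% interval 0.29 to 1.49), with an unadjusted p of 0.0099 and an adjusted p of 0.0788 in limma, so the difference did not pass the threshold. Knockout library 3 decided the call, since without it the log2 fold change was 1.20 and the limma adjusted p 0.0122, while over the 13 alternative settings the adjusted p ranged from 0.0122 to 0.278. Without knockout library 2, the knockout library with high Lyz2, the log2 fold change was 0.75 (adjusted p = 0.278).

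In contrast to Il1b, Il1rn hardly varied among the controls, with a highest-to-lowest ratio of 1.12 that 92.6% of tested genes reached or exceeded. In the knockout this ratio was 1.95. The genes nearest to Il1rn in pattern were Mtmr14 (r = 0.994), Sec24b (0.994) and Slamf8 (0.991), and Slamf8, a receptor gene of macrophages, also missed the threshold (log2 fold change 1.07, limma adjusted p = 0.0558).

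Il1rn has more than 1 start site, and the 150 bases before 2 of them are shown to set them beside the agonist promoters. They lie on the plus strand of GRCm38.p6 (RefSeq), at chr2:24336710-24336859 for the upstream start and chr2:24345141-24345290 for a downstream start. Capitals mark AP-1 letters in the first and C/EBP letters in the second.

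Il1rn upstream: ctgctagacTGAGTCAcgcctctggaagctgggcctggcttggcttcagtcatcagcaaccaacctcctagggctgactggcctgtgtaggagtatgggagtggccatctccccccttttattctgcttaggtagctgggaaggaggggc
Il1rn downstream: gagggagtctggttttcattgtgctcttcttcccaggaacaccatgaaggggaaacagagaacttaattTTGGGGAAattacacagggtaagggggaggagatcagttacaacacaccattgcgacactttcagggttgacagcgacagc

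The AP-1 letters stood 141 to 135 bases before the upstream start and the C/EBP letters 81 to 74 bases before the downstream start. Neither window held TATA letters, unlike those of Il1a and Il1b. The gene table does not separate the starts, so the reads of Il1rn could not be divided between them.

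Il18bp, which encodes the soluble inhibitor of IL-18, measured 3.33, 4.43 and 3.32 FPKM across knockout libraries 1 to 3, against 7.38, 4.40 and 1.75 FPKM across control libraries 1 to 3. The controls enclosed the knockouts, as for the agonists. The means were 3.70 ± 0.636 and 4.51 ± 2.81 FPKM (SD, n = 3), and the log2 fold change was -0.10 (95% interval -0.97 to 0.78, limma adjusted p = 0.887), and the sign turned when libraries were rescaled by the median of ratios (0.01). Its control spread was also wide, with a highest-to-lowest ratio of 4.21 that 3.44% of tested genes reached. Fzd1 (r = 0.986), a Wnt receptor gene, was nearest to it in pattern, followed by St3gal5 and Smpdl3a (both r = 0.985).

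**Figure D3:**
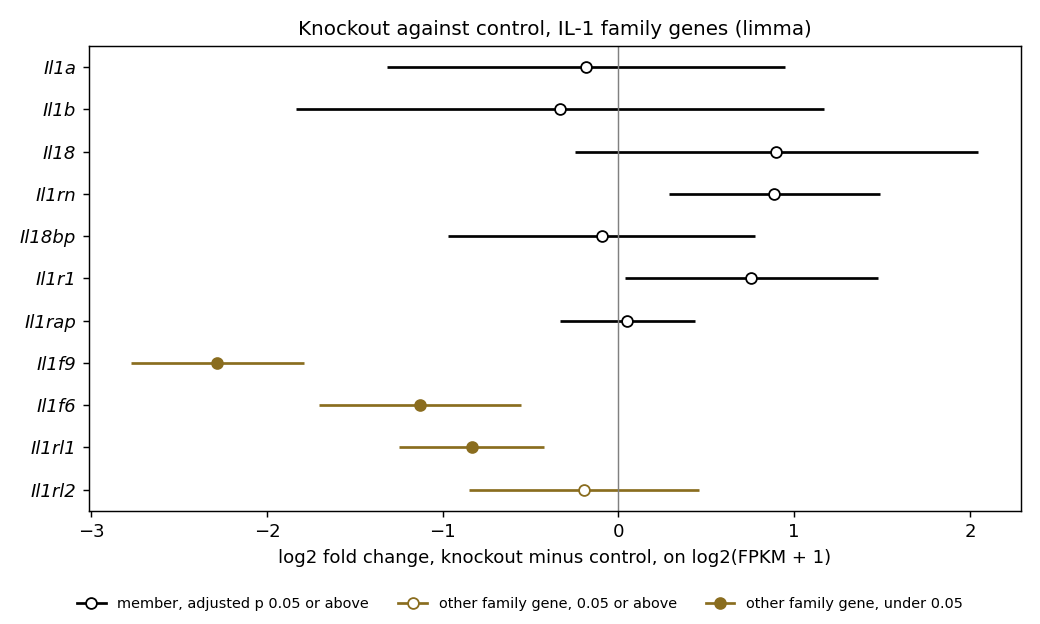
Log2 fold changes of knockout against control on the log2(FPKM + 1) scale with 95% intervals from limma, for the 7 tested members in black and 4 other IL-1 family genes in brown, filled where the adjusted p was under 0.05. The intervals of Il1rn and Il1r1 lie above 0 although neither passed the threshold, and Il1f9, Il1f6 and Il1rl1 lie well below 0. The filter set the direction of Il1r1, tested through the knockout alone, and of Il1f6 and Il1rl1, tested through the controls alone.

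Il1r1, the signalling receptor, was near the limit of the filter, with 0.550, 2.71 and 0.947 FPKM across knockout libraries 1 to 3, against 0.177, 0.360 and 0.450 FPKM across control libraries 1 to 3. All 3 knockout libraries were above all 3 controls, and knockout library 2 was by far the highest. Behind these values were 142, 703 and 238 reads in the knockout and 43, 86 and 100 reads in the control. The means were 1.40 ± 1.15 and 0.329 ± 0.139 FPKM (SD, n = 3), a ratio of 4.26. The log2 fold change was 0.76 on the log2(FPKM + 1) scale, which understates changes of low genes (SE 0.307, 95% interval 0.04 to 1.48, unadjusted p = 0.0418, limma adjusted p = 0.165), and 1.88 in voom (adjusted p = 0.147). Il1r1 reached the filter through the knockout group alone, so the direction of its difference was set by the filter. Without knockout library 2 it fell under the filter and was not tested. The genes nearest to it in pattern were Cnn3 (r = 0.952), G6pc3 (0.939) and Srp14 (0.929).

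Mesothelial cells and fibroblasts express IL-1R1, and the genes of their marker list differed in their order across the libraries. The order of libraries for Il1r1 was shared by 69 of the other 9029 tested genes (0.764%), among them Col1a2, a collagen gene, and Pdgfra, a fibroblast receptor gene. Col1a2 measured 1.84, 8.31 and 4.30 FPKM across knockout libraries 1 to 3, against 0.0437, 0.511 and 1.47 FPKM across control libraries 1 to 3 (limma adjusted p = 0.0678). The keratin genes of the list did not follow this order, and Krt8 was highest in control library 3, at 2.82 FPKM. Of the 13 genes in this marker list, 6 were tested, and 0 passed in limma without the block. At an unadjusted p under 0.05 in that fit there were 3, beside 2494 of all 9030 tested genes. Col1a1, Col1a2, Col3a1 and Pdgfra, 4 of the 6, reached the filter through the knockout alone, so the direction of their fold changes was set by the filter. With the replicate number as a block 3 of the 6 passed, namely Col1a1 (adjusted p = 0.0443), Col1a2 (0.0277) and Pdgfra (0.0476), where 3.90% of all tested genes passed as higher in that fit. All 3 are among the genes tested through the knockout alone, so this count is a description. The summed level of the list was 15.8 to 39.1 FPKM in the knockout and 2.20 to 19.3 FPKM in the control, and Dcn, Col1a2 and Col1a1 were its most abundant genes by mean level. The defining mesothelial genes Msln, Upk3b and Wt1 were at most 1.09 FPKM in every library. The part of these cells in the Il1r1 difference was not tested.

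The decoy receptor gene Il1r2 was almost silent, with 0.275, 0.0708 and 0.0912 FPKM across knockout libraries 1 to 3, against 0.114, 0.125 and 0.299 FPKM across control libraries 1 to 3. The groups overlapped, and the values rest on 8 to 31 reads in each library. The means were 0.146 ± 0.113 and 0.179 ± 0.104 FPKM (SD, n = 3), and a difference was not detectable at this depth. Neutrophils are rich in IL-1R2, and of the neutrophil markers Cxcr2 was at most 0.0531 FPKM, while S100a8 stood at 39.9 to 70.5 FPKM in the knockout and 156 to 171 FPKM in the control. The summed level of the 9 neutrophil genes analysed was 109 to 230 FPKM in the knockout and 233 to 479 FPKM in the control, mostly from Mmp8, S100a8 and Csf3r, and 2 of the 6 tested, S100a8 and Camp, fell, where 4.74% of all tested genes did (Camp reached the filter through the controls alone and had an adjusted p of 0.0529 in limma with the block). Mmp8 lay between 29.2 and 128 FPKM in the knockout and between 19.5 and 294 FPKM in the control, and Csf3r had a positive log2 fold change of 0.46 (limma adjusted p = 0.304). S100a9 was far below S100a8, at 0.949 to 1.21 FPKM in the knockout and 0 to 5.12 FPKM in the control, and its groups overlapped. Ly6g, Elane and Mpo were not analysed here. Their part in the levels of Il1b, Il1rn and Il1r2 was not tested.

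Il1rap, the accessory protein that IL-1R1 needs to signal, was the steadiest receptor gene, with 1.73, 1.95 and 1.64 FPKM across knockout libraries 1 to 3, against 1.93, 2.04 and 1.15 FPKM across control libraries 1 to 3. The groups overlapped, and control library 3 was the lowest. The means were 1.78 ± 0.159 and 1.71 ± 0.484 FPKM (SD, n = 3). The log2 fold change was 0.05 (SE 0.163, 95% interval -0.33 to 0.43, limma adjusted p = 0.866), and the SE was 0.234 in voom, since the added 1 FPKM compresses differences at this level. Arf4 and Cpne3 (both r = 0.994) and Cab39l (0.989) followed it most closely.

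Ratios within a library compare antagonist and agonist transcripts without reference to the scaling of the library. The Il1rn level was 17.4%, 23.1% and 16.7% of the summed Il1a and Il1b levels in knockout libraries 1 to 3 and 4.70%, 6.49% and 20.7% of it in control libraries 1 to 3. Control libraries 1 and 2 lay far below the knockouts and control library 3 lay among them, so the groups overlapped (log2 difference 1.14, two-sided exact permutation p = 0.3, where 3 against 3 cannot give less than 0.1). The log2 difference was 1.77 without control library 3 and 0.70 without control library 1.

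The Il18bp level was 26.6%, 29.5% and 36.7% of the Il18 level in knockout libraries 1 to 3 and 66.1%, 54.1% and 86.5% of it in control libraries 1 to 3. All knockout libraries were lower than all controls, with a log2 difference of -1.14 that ranged from -1.30 to -0.96 over the alternatives (two-sided exact permutation p = 0.1, the smallest possible). Neither gene alone separated the groups. The ratio of Il1b to Il1a was 0.659, 0.566 and 0.524 in knockout libraries 1 to 3 and 0.797, 0.666 and 0.500 in control libraries 1 to 3, with overlapping groups (log2 difference -0.15, exact permutation p = 0.6). The ratio of decoy to signalling receptor, Il1r2 to Il1r1, was 0.500, 0.0261 and 0.0963 in knockout libraries 1 to 3 and 0.640, 0.347 and 0.665 in control libraries 1 to 3, which also overlapped (log2 difference -2.29, exact permutation p = 0.2). This difference was -3.40 without knockout library 1, -1.27 without knockout library 2, and -0.80 with 1 FPKM added to each level, where the groups no longer overlapped (exact permutation p = 0.1). It rests on the few reads of Il1r2 and on Il1r1, whose highest-to-lowest ratio in the knockout was 4.93, beside 3.89 for Il1r2. The smallest p was 0.4 after Benjamini-Hochberg adjustment of the exact permutation p-values over these 4 ratios.

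**Figure D4:**
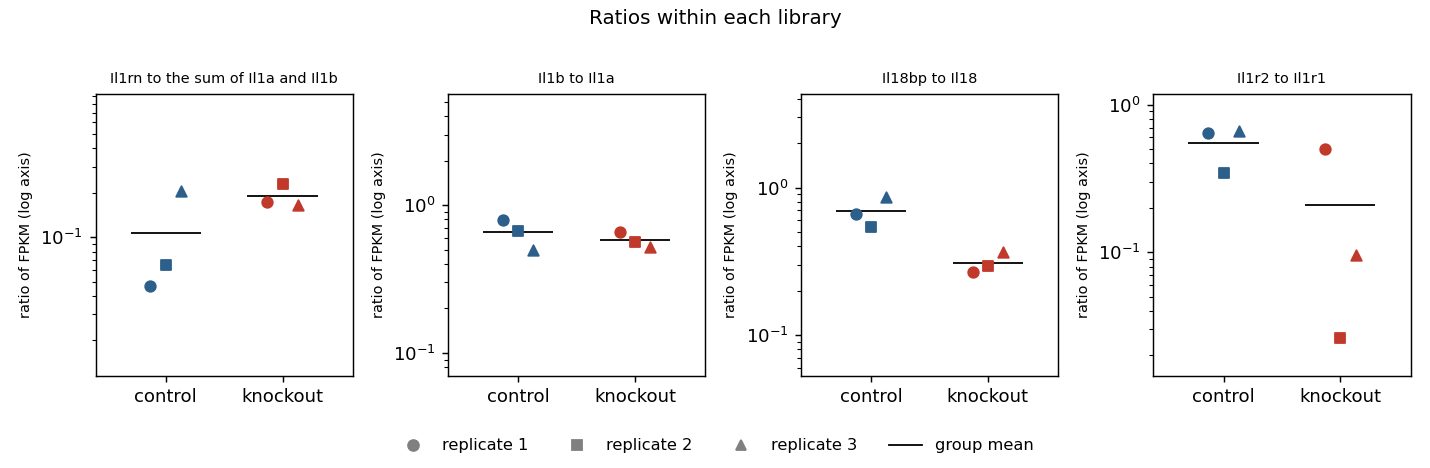
Ratios of FPKM within each library on log axes, with replicates as symbols and group means as lines. The ratio of Il18bp to Il18 is lower in all 3 knockout libraries than in all 3 controls, and control library 3 sits among the knockouts in the ratio of Il1rn to its agonists.

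Outside the 8 members, the IL-36 ligand gene Il1f9 fell in the knockout and was above the filter in both groups. Of 6 further ligand genes 2 were tested, Il1f9 and Il1f6, and both passed as lower, where 4.74% of all tested genes did. Il33 was under the filter, at no more than 0.815 FPKM. Il1f9, which encodes IL-36γ, measured 7.90, 6.50 and 7.97 FPKM across knockout libraries 1 to 3, against 29.9, 40.9 and 52.2 FPKM across control libraries 1 to 3. Every control was above every knockout, with a mean 5.50 times that of the knockout (log2 fold change -2.28, SE 0.210, limma adjusted p = 0.00527). The call was lost without control library 2 (adjusted p = 0.0570). Il1f6, which encodes IL-36α, stood at 0.162, 0.241 and 0.609 FPKM in the knockout and at 2.81, 2.09 and 1.06 FPKM in the control. Its groups did not overlap either (log2 fold change -1.13, limma adjusted p = 0.0384, and -2.64 in voom), but it reached the filter through the controls alone, so that it had to be lower in the knockout to some degree, and the call was lost in 8 of 12 alternatives, including the block (adjusted p = 0.0539). The genes of this family stand together on chromosome 2 in the order Il1f8, Il1f9, Il1f6, Il1f5, Il1f10 and Il1rn. Il1f8, Il1f5 and Il1f10 were not analysed here.

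Of 7 further receptor genes 2 were tested and 1 passed as lower, where 4.74% of all tested genes did. Il1rl1, the gene of the IL-33 receptor ST2, measured 0.169, 0.118 and 0.193 FPKM across knockout libraries 1 to 3, against 0.605, 1.23 and 1.48 FPKM across control libraries 1 to 3. The groups did not overlap (log2 fold change -0.84, SE 0.177, limma adjusted p = 0.0361, and -2.70 in voom), although this gene too reached the filter through the controls alone and the call was lost when any 1 of the knockout libraries or control library 2 was left out (limma adjusted p between 0.0737 and 0.157). The call was also lost with no filter on low values (adjusted p = 0.0530), and without control library 3 the gene fell under the filter. Mast cells carry ST2, and mast cell genes were lower in the same libraries. All 5 tested mast cell genes passed as lower (4 of them with the block), where 4.74% of all tested genes did, but all 5 reached the filter through the controls alone, so this count is a description. The list had a summed level of 1.89 to 2.27 FPKM in the knockout and 38.2 to 49.3 FPKM in the control. The most abundant were Tpsb2, Cma1 and Cpa3, which encode mast cell proteases. Tpsb2 stood at 0.538 to 0.783 FPKM in the knockout and at 12.4 to 20.5 FPKM in the control, and Fcer1a, which encodes a chain of the IgE receptor, had no read in 2 of 3 knockout libraries. The part of mast cells in the Il1rl1 difference was not tested. Il1rl2, the IL-36 receptor, measured 3.71, 3.14 and 6.05 FPKM across knockout libraries 1 to 3, against 3.63, 4.36 and 7.36 FPKM across control libraries 1 to 3, with overlapping groups (log2 fold change -0.20, limma adjusted p = 0.674). The receptor genes Il1r2, Il1r1, Il1rl2, Il1rl1, Il18r1 and Il18rap stand in this order on chromosome 1. Il18r1 and Il18rap, which encode the chains of the IL-18 receptor, were under the filter, with at most 0.287 and 0.298 FPKM in any library.

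In the pathway below the receptor, 28 of 29 signalling genes were tested, of which 2 rose and 2 fell, where 2.57% of all tested genes rose and 4.74% fell. Map3k8, the kinase Tpl2, stood at 24.8 to 35.4 FPKM in the knockout and 15.3 to 18.1 FPKM in the control (log2 fold change 0.88, limma adjusted p = 0.0284). Nfkbia, the NF-κB inhibitor IκBα, stood at 327 to 469 FPKM in the knockout and 185 to 249 FPKM in the control (0.86, adjusted p = 0.0355), but this call was lost with rescaling by the median of ratios (limma adjusted p = 0.0528) and with no filter (0.0634). Ikbkg, the NEMO subunit of the IκB kinase, fell by 1.34 log2 units (limma adjusted p = 0.0204), and Mapk14, the kinase p38α, fell by 0.64 (adjusted p = 0.0419). The call of Mapk14 was lost with the block (limma adjusted p = 0.0530), with rescaling (0.0692) and with no filter (0.0566). The most abundant signalling genes that did not pass were Nfkb1 (log2 fold change 0.13, limma adjusted p = 0.587), Nfkbiz (0.17, 0.409) and the adaptor gene Myd88 (0.38, 0.165).

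Among the genes of cytokine maturation and release, 20 of 24 were tested, 1 rose and 3 fell, where 2.57% and 4.74% of all tested genes did. Casp4, the sensor of cytosolic LPS, stood at 95.2 to 139 FPKM in the knockout and 58.7 to 78.0 FPKM in the control (log2 fold change 0.83, limma adjusted p = 0.0445), a call lost with rescaling (0.0591) and with no filter (0.0695). Panx1, a membrane channel, fell by 1.77 log2 units (limma adjusted p = 0.0110), Nlrc4, an inflammasome scaffold, fell by 1.10 (adjusted p = 0.0217), and Naip2, a sensor upstream of it, fell by 0.93 (adjusted p = 0.0144). With no filter the adjusted p of Nlrc4 in limma was 0.0505. Naip2 belongs to a family of similar copies among which reads may be divided uncertainly. The genes of the inflammasome that cleaves IL-1β did not pass, with Nlrp3 at 137 to 184 FPKM in the knockout and 186 to 211 FPKM in the control (log2 fold change -0.30, limma adjusted p = 0.236) and Casp1 at 86.6 to 116 and 69.3 to 110 FPKM (0.15, adjusted p = 0.679). Ninj1, which ruptures the membrane of dying cells, did not pass either (-0.21, adjusted p = 0.407).

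Among 15 genes that IL-1 and LPS both induce through NF-κB, all were tested, 1 rose and 2 fell, beside 2.57% and 4.74% of all tested genes. The chemokine gene Ccl2 rose by a log2 fold change of 1.84 (limma adjusted p = 0.0285), while the neutrophil chemokine genes Cxcl1 and Cxcl2 fell by 1.21 and 0.99 log2 units (limma adjusted p = 0.0254 and 0.0197). With no filter on low values these 3 calls were lost (adjusted p = 0.0634 for Ccl2, 0.0650 for Cxcl1 and 0.106 for Cxcl2). Tnf (0.39, limma adjusted p = 0.212), Cxcl3 (-1.88, adjusted p = 0.0533) and Il6 (-0.88, adjusted p = 0.460) did not pass. In all, 14 of the 67 tested pathway genes outside the members passed, 4 higher and 10 lower, where 7.31% of all tested genes passed. The 10 include Il1f6 and Il1rl1, which were tested through the controls alone. The pathway lists were chosen with earlier results of these data known, so this count and those of the single lists are descriptions. Leaving out libraries moved this count between 0 (without control library 2) and 19, with 1 without knockout library 1 and 2 without knockout library 2. Map3k8, Nfkbia, Ikbkg, Casp4, Nlrc4, Naip2, Ccl2, Cxcl1, Cxcl2 and Mapk14 each lost the call when any 1 of these 3 libraries was left out, and Panx1 without knockout library 1 or control library 2.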

How the data were processed

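RNA of PEMs was sequenced in 3 knockout and 3 control libraries, grouped by sample title. The authors deposited 1 table with FPKM per gene and library, made from counted reads, gene length and library size. The signal columns deposited by the authors hold, for each group, the mean count after division by size factors of DESeq2. The ratio (fold change), its log2 value, and the p-value and q-value of the authors' own comparison are in the deposited table and were not used. The labels name the build mm9, and the aligner, annotation and strand setting are not given in the sources used here. Every listed gene had a mean of at least 1.11 in the authors' overall mean count.

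Whole reads were recovered from FPKM and the group means (100% of values within 0.01 of a whole number), giving 36170767 to 42217558 reads per library. Values are log2(FPKM + 1). The pseudocount makes fold changes of low genes smaller. The fit took the 9030 genes whose mean FPKM reached 1 in a group and was made with limma 3.58.1 (R 4.3.3, eBayes with a trend), with Benjamini-Hochberg adjustment over all 9030 and a threshold of 0.05. A count model was not used as the main test, because FPKM are not counts. Ratios within libraries were tested with two-sided exact permutation tests (scipy 1.17.1). On simulated reads with 4-fold changes, 195 of 195 changed genes were recovered and 19 of 8578 unchanged genes were called by limma. The simulation gave all genes the same dispersion and did not copy the spread of these libraries. It therefore checks the code and does not show power or error rates in these data.

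The replicate numbers were checked for pairing. Deviations from the group means correlated at 0.109, 0.109 and 0.304 for equal numbers and at -0.332 to 0.291 for unequal ones. The value of 0.109 lay below the highest unequal one, and the sample titles name no pairs. Pairing was therefore not shown, and the fit with the number as a block is an alternative only. Alternatives were no filter, at least 10 reads in every library, a pseudocount of 0.1, no trend, the block, rescaling by the median of ratios, voom on the recovered reads, and each library left out.

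The 8 members, 5 pathway lists (other ligands, other receptors, signalling, maturation and release, shared NF-κB response) and 8 marker lists were chosen with earlier results of these data known. Named were all members, Timd4 and Lyz2, up to 6 genes per pathway list past the threshold and the 3 most abundant not past it, the 3 most abundant genes per marker list, and the 3 genes closest to each tested member in pattern. Fcer1a, Cxcr2, Camp, Pdgfra, Msln, Upk3b, Wt1, Col3a1, Krt8, Mertk, Mrc1, S100a9, Irak3, Aim2, Naip5, Il33, Il18r1, Il18rap, Retnlg, Kit and genes that overlap members were named after their values were seen. RefSeq promoters (GRCm38.p6) matched 8 of 8 members with 11 windows. Sequence coordinates are on that build and none were converted from mm9.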

Additional observations from a re-analysis of the deposited data

How the results depend on the processing

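Over all tested genes 660 passed the threshold, and 8, 30 or 63 passed when control library 2, knockout library 1 or knockout library 2 was left out, up to 1333 without control library 3, a range of 8 to 1333. For the members the count was 0 under every alternative but the removal of knockout library 3, where it was 1 (Il1rn), a range of 0 to 1. For the other pathway genes the count was 14, it was 6 without a filter on low values, and it ranged from 0 to 19 with a library left out. The signs of members near no change turned. The log2 fold change of Il1a went to 0.006 without knockout library 3 and to 0.229 without control library 1, Il1b to 0.237 and Il18bp to 0.277 without control library 1, Il18bp to 0.009 with rescaling by the median of ratios, Il1rap to -0.107 without control library 3, and the log2 ratio of Il1b to Il1a to 0.008 without control library 1. The cause was not tested. With a library left out, the log2 values lay between -0.76 and 0.229 for Il1a, -1.086 and 0.237 for Il1b, -0.526 and 0.277 for Il18bp, -0.107 and 0.142 for Il1rap, -0.327 and 0.008 for the ratio of Il1b to Il1a, 0.703 and 1.770 for that of Il1rn to its agonists, and -3.397 and -1.267 for that of Il1r2 to Il1r1. Il1rn and Il18 had positive fold changes in every fit.

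Over all tested genes the median log2 difference was -0.11, and 0.01 after rescaling by the median of ratios, which moved the share of calls that were higher in the knockout from 35.2% to 51.3%. The block changed the calls of Il1f6, Mapk14, Timd4, Col1a1, Col1a2 and Pdgfra, as given in the text, and among the other listed genes those of Irak3, Aim2, Camp (adjusted p = 0.0529), Retnlg (0.0437) and Kit (0.0538), and it changed no other call of a listed gene. Over all genes it gave 855 calls, of which 570 were among the 660. Voom gave 650, of which 615 were. The spread among the controls limits what can be seen for Il1a and Il1b, and the 8 to 31 reads of Il1r2 limit that gene.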

Other observations

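Irak3 and Aim2, named after their values were seen, passed the threshold in the fit with the replicate block but not in the fit without it. Irak3 encodes IRAK-M, which restrains signalling by the IL-1 and Toll-like receptors, and it measured 61.1, 46.6 and 83.2 FPKM across knockout libraries 1 to 3, against 101, 92.0 and 113 FPKM across control libraries 1 to 3. Every control lay above every knockout library (log2 fold change -0.71, SE 0.216, limma adjusted p = 0.0895, or 0.0469 with the replicate number as a block). Aim2, which encodes a sensor of cytosolic DNA that also activates caspase-1, measured 10.2, 11.6 and 8.16 FPKM across knockout libraries 1 to 3, against 6.64, 6.78 and 3.73 FPKM across control libraries 1 to 3. Its groups did not overlap either (log2 fold change 0.73, SE 0.229, limma adjusted p = 0.0944, or 0.0332 with the block).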
